A study of Mus musculus with 8 samples.

Results

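The nuclear genes for the subunits of the mitochondrial respiratory chain and of ATP synthase were examined in Hoxa9-transformed mouse myeloid cells with and without Meis1. Members were chosen by gene symbol alone, as the probe sets whose single symbol in the platform annotation begins as those of the Nduf, Sdh, Uqcr, Cox and Atp5 subunit families do. The rule found 135 probe sets for 79 genes among the 17097 genes named in the table. After the lowest 40% of probe sets by mean signal were left out, 127 probe sets and 77 of the 79 genes remained. The 2 genes without a kept probe set were Cox6b2 and Cox7b2, isoforms of complex IV subunits best known from testis.

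Oxidative phosphorylation runs in the mitochondrial inner membrane. Complex I (the Nduf genes) and complex II (the Sdh genes) pass electrons from NADH and succinate to coenzyme Q, complex III (the Uqcr genes) passes them to cytochrome c, and complex IV (the Cox genes) passes them to oxygen. Complexes I, III and IV pump protons, and ATP synthase, also called complex V (the Atp5 genes), uses the proton gradient to make ATP. Some subunits of every complex other than complex II are made inside the mitochondrion from its own genome, and the symbol rule holds none of these. In blood cells, the balance of glycolysis and oxidative phosphorylation is known to shift as stem and progenitor cells mature.

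Expression was measured on 8 Affymetrix arrays, 4 for each of 2 groups, with biotin-labelled cRNA from 100 ng of total RNA. All cells were bone marrow cells of C57BL/6 mice with a tamoxifen-inducible Cre recombinase (Cre-ERT2) at the Rosa26 locus. They had been immortalized with retroviral Hoxa9 and a floxed retroviral Meis1, and they were kept in 5 ng/ml interleukin-3 and 10% serum. The 4 Hoxa9 and Meis1 samples were left untreated, whereas the 4 Meis1 deleted samples received 2 µM 4-hydroxytamoxifen, which activates Cre and removes the Meis1 transgene. Only the deleted group met the drug and active Cre, so their effects and that of Meis1 loss cannot be told apart. The labels do not say whether the 4 samples of a group were separate cultures, so the p-values reflect sample-to-sample spread alone, and that spread could be technical.

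Values are log2 signals, and every difference is Meis1 deleted minus Hoxa9 and Meis1, so a positive one means higher after the deletion. A gene was counted as changed, or as having passed the test, when its adjusted p in a limma fit over all 11836 genes was under 0.05. The probe sets for Meis1 and Hoxa9 did not check the labels: Meis1 read 5.02 ± 0.07 in the deleted group and 5.00 ± 0.05 in the other (SD, n = 4 each), and the submitters checked the deletion by genomic PCR. Spiked bacterial controls split the arrays into an array set 1 (Meis1 deleted replicates 1 to 3, Hoxa9 and Meis1 replicates 1 and 2) and an array set 2 (Meis1 deleted replicate 4, Hoxa9 and Meis1 replicates 3 and 4); the labels name no batch. The Gapdh control's 3′ probes exceeded its 5′ probes by 0.72 in Meis1 deleted replicate 1 and by -0.07 to 0.04 elsewhere. All 8 myeloid markers were above the median signal of kept probe sets, and 5 of them rose and 2 fell. All 10 macrophage markers rose after the deletion, with a mean log2 level of 9.74 to 9.81 across deleted arrays against 5.87 to 5.99, all 7 neutrophil markers kept rose, and 4 of 5 progenitor markers fell. Of the markers of other cells, 1 of 4 erythroid genes kept and 2 of 4 megakaryocyte genes kept rose, 1 of 2 mast cell genes kept fell, 0 of 2 B cell and 0 of 3 T cell genes kept changed, and 0 of 6 stromal genes were kept. The part of these marker shifts in the subunit values was not tested, and in bulk samples fewer cells of a type and less RNA per cell cannot be told apart.

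The subunit genes differed little between the groups. Of the 77 genes, 1 rose (Cox5a) and 8 fell (Cox7a2l, Cox7a1, Uqcrfs1, Atp5g2, Uqcrc2, Ndufa7, Cox8b and Atp5d), or 11.7% of them. Over all 11836 genes tested, 35.5% passed the same limma test, 18.1% with a higher and 17.5% with a lower value. The 77 subunit genes had a median log2 difference of -0.00125 and their middle values lay between -0.06 and 0.05 (quartiles), beside a median of -0.0044 and quartiles of -0.13 and 0.13 over all genes. None of the 77 reached a 2-fold difference, as 377 of all genes did. Without Hoxa9 and Meis1 replicate 3, 4 of the 77 passed (5.19%, beside 28.9% of all genes). Without Meis1 deleted replicate 3, 5 did (6.49%, beside 30.4% of all genes). Without Meis1 deleted replicate 1, 11 did (14.3%, beside 39.5% of all genes).

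Small differences were measured closely for most subunits. The standard error ran from 0.04 to 0.11. Its median was 0.05, beside 0.06 over all genes and 0.05 over those with a mean log2 signal of at least 9. For 64 of the 77 genes (83.1%) the whole 95% confidence interval of the difference lay within ±0.25 on the log2 scale, a change of about 18.9% upward at most, and the same held for 41.3% of all genes. Because 70 of the 77 genes had a mean log2 signal of at least 9, the 2605 genes at or above that level were also used as a background. Of the 70 bright subunit genes 1 rose and 6 fell, while in all genes this bright 43.0% passed the test (18.5% higher and 24.5% lower) and 47.6% had an interval within ±0.25.

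The groups did not overlap, every array of one lying above every array of the other, for 17 of the 77 genes, 5 of them higher and 12 lower after the deletion. Over all genes the groups did not overlap for 38.6% (2330 higher and 2237 lower). For genes at a level of at least 9, the groups did not overlap for 52.1% (580 higher and 778 lower). The non-overlapping subunits that missed the test were Ndufa4, Ndufv3, Sdha, Cox6c, Cox6a1, Atp5l, Atp5j and Atp5a1, whose differences ran from -0.08 for Cox6c to 0.10 for Sdha.

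The mean over the 77 genes was almost the same on every array. It was 10.45, 10.39, 10.41 and 10.40 in Meis1 deleted replicates 1 to 4 and 10.40, 10.41, 10.46 and 10.46 in Hoxa9 and Meis1 replicates 1 to 4. The groups overlapped, with means of 10.41 ± 0.02 and 10.43 ± 0.03 (SD, n = 4 each). The highest values came from Hoxa9 and Meis1 replicates 3 and 4, both of array set 2, and from Meis1 deleted replicate 1. The median difference over the subunits was 0.03 within array set 1 and -0.04 within array set 2.

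**Figure D1:**
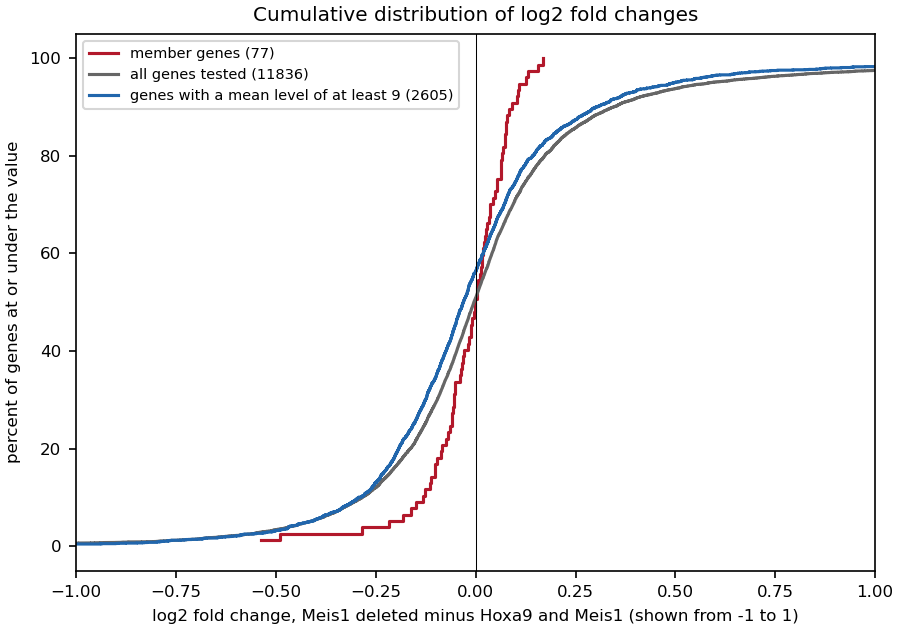
Cumulative distribution of log2 fold changes (x axis, Meis1 deleted minus Hoxa9 and Meis1, shown from -1 to 1) for the 77 member genes, all 11836 genes tested and the 2605 genes with a mean level of at least 9; the y axis is the percent of genes at or under each value. The curve of the members is steeper around 0 than both others, with 96.1% of members within ±0.25 against 73.7% of all genes.

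**Figure D2:**
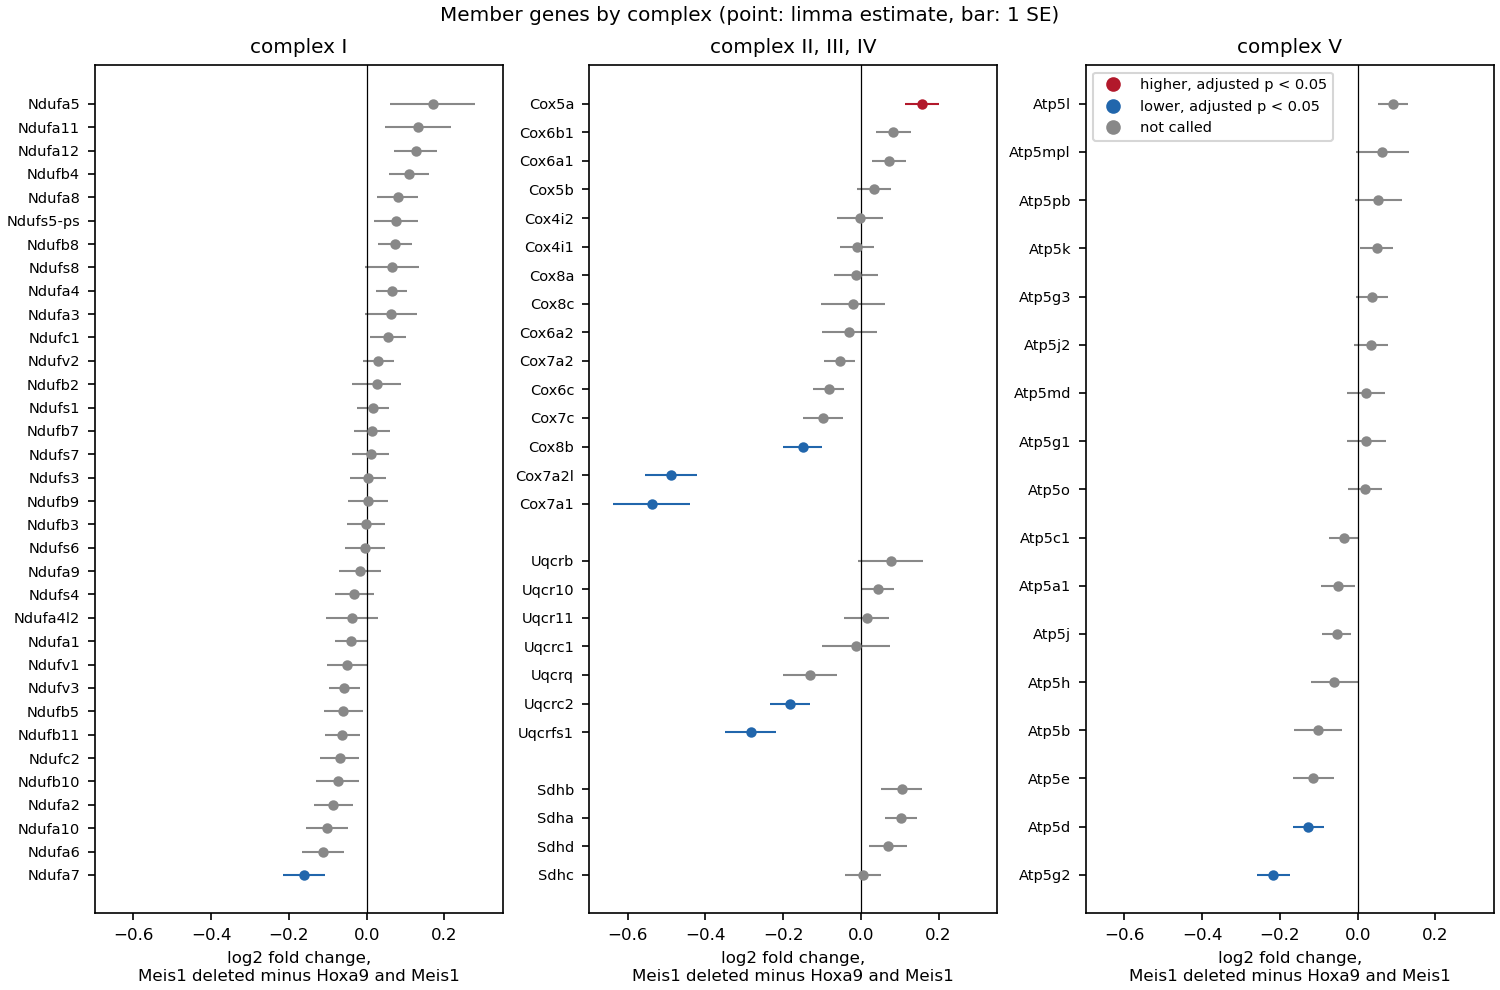
Log2 fold change (x axis, Meis1 deleted minus Hoxa9 and Meis1) of each of the 77 genes, sorted within complexes; points are limma estimates, bars are 1 SE, n = 4 arrays a group, and colour gives the call at an adjusted p under 0.05. The gene that rose and the 8 that fell stand at the ends of their complexes, and most other points lie close to 0.

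Complex I, the entry point for electrons from NADH, held 34 genes, of which 0 rose and 1 fell (35.5% of all genes passed). Genes were assigned to complexes by symbol, so Ndufa4 and its isoform Ndufa4l2 were counted here, although Ndufa4 is known from complex IV. The median difference was 0.0035, and 30 of the 34 intervals lay within ±0.25. The 6 core subunits measured, all of the matrix arm (Ndufv1, Ndufv2, Ndufs1, Ndufs3, Ndufs7 and Ndufs8), had differences from -0.05 to 0.07, and 0 of 6 passed the test. The 28 accessory genes had a median of -0.0029 and ran from -0.16 for Ndufa7 to 0.17 for Ndufa5, which was named after its values were seen. Ndufa5 varied more than any other member, with an SE of 0.11 and an adjusted p of 0.273 in limma. It read 10.12 in Meis1 deleted replicate 1 and 9.61 to 9.69 on the other deleted arrays, and without that replicate its difference was 0.05 ± 0.06.

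Ndufa7, an accessory subunit of the matrix arm, was the complex I gene that fell. Its log2 signal was 10.59, 10.56, 10.54 and 10.57 in Meis1 deleted replicates 1 to 4 and 10.65, 10.65, 10.77 and 10.84 in Hoxa9 and Meis1 replicates 1 to 4. There was no overlap between the groups, and the 2 higher control values belong to array set 2. The difference was -0.16 ± 0.05 (SE, adjusted p = 0.0422, limma), so that the signal fell by 10.6%. It was -0.09 within array set 1 (adjusted p = 0.353, limma) and -0.23 within array set 2, which held 1 deleted array. All 5 Ndufa7 probe sets were lower after the deletion, by -0.18 to -0.11, but 1 of the 5 passed on its own. The gene did not pass without any 1 of Meis1 deleted replicates 2, 3 and 4 or Hoxa9 and Meis1 replicates 3 and 4.

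The other complex I genes with the smallest p values did not pass. Ndufa12, an accessory subunit, was higher by 0.13 ± 0.06 (adjusted p = 0.108), with the lowest deleted value, 11.10, below the highest control value, 11.15. Ndufb4, a subunit of the membrane arm, was higher by 0.11 ± 0.05 (adjusted p = 0.140, limma), and its groups overlapped at 10.35 to 10.37. Besides Ndufa7, probe sets differed in their call for Ndufb5 and Ndufs4. Ndufb5, a membrane arm subunit, had a second bright probe set at -0.16 ± 0.04 that passed among probe sets (adjusted p = 0.0125), beside -0.06 ± 0.05 for the one that stood for the gene. Ndufs4, an accessory subunit whose loss is a known cause of Leigh-like disease, had differences of -0.03 and 0.05 at 2 probe sets and -0.58 ± 0.09 (adjusted p = 0.00119) at the other, whose means of 5.04 and 5.62 were under the median signal of kept probe sets. One symbol of the complex, Ndufs5-ps, names a pseudogene in the annotation, and its probe set cannot be told apart from the parent gene; its difference was 0.08 ± 0.06.

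Complex II, succinate dehydrogenase, is shared by the respiratory chain and the tricarboxylic acid cycle. None of its 4 genes passed the test defined above (35.5% of all genes did), and all 4 differences were positive, with a median of 0.09. The mean over the 4 genes was 9.95, 9.92, 9.90 and 9.95 on the deleted arrays and 9.84, 9.82, 9.90 and 9.87 on the control arrays. The lowest deleted array and the highest control array were within 0.01 of each other.

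Sdha, the flavoprotein that oxidizes succinate, came closest. It read 10.88, 10.88, 10.88 and 10.89 in Meis1 deleted replicates 1 to 4 and 10.80, 10.73, 10.79 and 10.79 in Hoxa9 and Meis1 replicates 1 to 4, so the groups did not overlap. The difference was 0.10 ± 0.04 with an adjusted p of 0.0741 in limma. Its probe sets pointed both ways. A second one was higher by 0.27 ± 0.05 (adjusted p = 0.00376), with means of 10.07 and 9.80, and a dim one was lower by -0.26 ± 0.06 (adjusted p = 0.00781), with means of 4.44 and 4.70. Sdhb, the iron-sulfur subunit, was at 10.74 ± 0.06 against 10.63 ± 0.07 (SD, n = 4 each; adjusted p = 0.156, limma). With array set as a block Sdhb was higher by 0.13 and passed (adjusted p = 0.0301), while Sdha did not (adjusted p = 0.0601); with Meis1 deleted replicate 1 also left out, both passed (adjusted p = 0.00913 and 0.0411). Sdha passed in 6 of its 23 alternative fits, some of which had no block, such as quantile normalization. The mean of its probe sets differed by 0.04 (adjusted p = 0.499). The membrane anchors Sdhd and Sdhc had differences of 0.07 ± 0.05 and 0.0064 ± 0.05.

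Complex III, the cytochrome bc1 complex, held 7 genes, of which 2 fell and 0 rose (35.5% of all genes passed). Its median difference was -0.01. Uqcrfs1 encodes the Rieske iron-sulfur protein, which takes electrons from coenzyme Q. Its log2 signal was 10.28, 10.34, 10.31 and 10.47 in Meis1 deleted replicates 1 to 4 and 10.55, 10.54, 10.75 and 10.70 in Hoxa9 and Meis1 replicates 1 to 4. All deleted arrays lay below all control arrays, and within each group those of set 2 were the higher ones. The difference was -0.28 ± 0.07 (adjusted p = 0.00825, limma), so that the signal fell by 17.8%, with a 95% interval from -0.43 to -0.14. It was -0.23 within array set 1 (adjusted p = 0.0433, limma) and -0.26 within array set 2, which held 1 deleted array.

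Uqcrc2 encodes core protein 2 of the complex, on its matrix side. It read 10.96, 10.76, 10.82 and 10.79 in Meis1 deleted replicates 1 to 4 and 10.99, 11.01, 11.05 and 11.00 in Hoxa9 and Meis1 replicates 1 to 4. The groups did not overlap, although Meis1 deleted replicate 1 lay just under the controls. The difference was -0.18 ± 0.05 (adjusted p = 0.0240, limma), and the gene's second probe set was lower by -0.25 ± 0.06 (adjusted p = 0.0119). Without Meis1 deleted replicate 1 the difference was -0.22 (adjusted p = 0.00213). It did not pass without any 1 of Meis1 deleted replicates 2, 3 and 4 or Hoxa9 and Meis1 replicates 2 and 3.

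The remaining complex III subunits did not pass. Uqcrq, a small subunit near the coenzyme Q site, differed by -0.13 ± 0.07 (adjusted p = 0.188, limma) with overlapping groups. The other core protein, Uqcrc1, was at 10.59 ± 0.17 against 10.61 ± 0.09 (SD, n = 4 each), a difference of -0.01 ± 0.09. The interval of Uqcrc1 ran from -0.21 to 0.19, so a shift of the size seen for Uqcrc2 was within its error. Uqcr10 had a difference of 0.04 ± 0.04, but a dimmer probe set, with means of 7.40 and 7.02, was higher by 0.38 ± 0.09 (adjusted p = 0.0120).

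Complex IV, cytochrome c oxidase, held 15 of the genes and both of the larger differences. In it 1 gene rose, 3 fell, and 11 of the 15 differences were negative (12 after quantile normalization, where Cox5b changed sign), with a median of -0.02. Over all genes tested, 35.5% passed and 6024 of 11836 differences were negative. Of the 2605 genes at a mean level of at least 9, 43.0% passed and 1464 had a negative difference. The negative ones in complex IV include the dim isoforms Cox7a1, Cox8b, Cox6a2, Cox8c and Cox4i2, described below. Cox7a2l, known as SCAF1, is related to the Cox7a subunits and joins complex III to complex IV in respiratory supercomplexes; C57BL/6 mice are known to carry a shortened form of the protein. It read 10.18, 10.35, 10.38 and 10.43 in Meis1 deleted replicates 1 to 4 and 10.74, 10.76, 10.84 and 10.93 in Hoxa9 and Meis1 replicates 1 to 4. Every deleted array was below every control array, with a gap of 0.32 between the nearest ones. The difference was -0.49 ± 0.07 (adjusted p = 0.000431, limma), so that the signal fell by 28.7%, with a 95% interval from -0.64 to -0.34.

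The fall of Cox7a2l was the one that recurred most. The gene's other 2 probe sets were lower by -0.36 ± 0.06 and -0.49 ± 0.07, and both passed. The difference was -0.45 within array set 1 (adjusted p = 0.0170, limma). Within array set 2, where 1 deleted array was set against 2 controls, it was -0.46. It passed under all 23 alternative fits, with differences from -0.52 to -0.42.

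Cox5a, a nuclear-encoded subunit on the matrix side of complex IV, was the gene that rose. Its log2 signal was 12.00, 11.88, 11.90 and 11.92 in Meis1 deleted replicates 1 to 4 and 11.75, 11.78, 11.76 and 11.77 in Hoxa9 and Meis1 replicates 1 to 4. The groups did not overlap, and Meis1 deleted replicate 1 was the highest array. The difference was 0.16 ± 0.04 (adjusted p = 0.0208, limma), or 11.5% higher. The other 2 Cox5a probe sets were higher by 0.17 ± 0.05 and 0.18 ± 0.04, and both passed. The difference was 0.15 within array set 2, which held 1 deleted array. Within array set 1 it was 0.16 but did not pass (adjusted p = 0.167, limma). It also missed the threshold without Hoxa9 and Meis1 replicate 1 or replicate 3.

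The promoters of Cox7a2l and Cox5a, complex IV genes that moved in opposite directions at all of their probe sets, are shown to give their sequence context. Each window holds the 250 bases before the RefSeq transcription start in GRCm38.p6, read 5′ to 3′ on the gene's strand. The Cox7a2l window lies at chr17:83514334-83514583 on the minus strand and the Cox5a window at chr9:57520982-57521231 on the plus strand. They are all in lower case, since neither holds a match to the motifs searched.
Cox7a2l: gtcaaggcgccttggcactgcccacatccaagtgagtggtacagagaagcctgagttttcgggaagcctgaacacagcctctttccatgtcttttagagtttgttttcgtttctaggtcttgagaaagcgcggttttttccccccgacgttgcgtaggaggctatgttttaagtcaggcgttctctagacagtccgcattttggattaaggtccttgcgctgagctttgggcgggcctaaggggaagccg
Cox5a: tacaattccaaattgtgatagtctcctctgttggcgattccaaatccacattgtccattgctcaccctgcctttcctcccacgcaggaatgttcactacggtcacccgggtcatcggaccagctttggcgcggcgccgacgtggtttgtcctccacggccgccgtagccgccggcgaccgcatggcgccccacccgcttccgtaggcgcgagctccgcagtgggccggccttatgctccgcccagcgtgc
The Cox5a window was 63.2% G and C with 26 CpG dinucleotides, and the Cox7a2l window 52.0% with 13. Member windows had medians of 56.0% and 14. The windows available for genes that fell ran from 47.2% (Cox8b) to 62.8% (Atp5g2). A relation to the direction of change was not tested.

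Several complex IV subunits exist as a widely expressed form and a form restricted to a tissue or condition. Of 8 such restricted isoforms in the list (Cox4i2, Cox6a2, Cox6b2, Cox7a1, Cox7b2, Cox8b, Cox8c and, for Ndufa4, Ndufa4l2), 6 had a kept probe set. Of these 6, 2 fell and 0 rose (33.3% passed, near the 35.5% of all genes), and all 6 differences were negative, also under the other scalings tried. In other alternative fits Cox4i2, Cox8c, Cox6a2 and Ndufa4l2 also took positive differences, of up to 0.06, 0.05, 0.03 and 0.005. All 6 were under the median signal of kept probe sets, 6.42, where no detection call was available, so their log2 differences describe dim signals.

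Cox7a1, the heart and skeletal muscle form, fell. It read 5.31, 5.07, 5.09 and 4.98 in Meis1 deleted replicates 1 to 4 and 5.64, 5.40, 5.75 and 5.81 in Hoxa9 and Meis1 replicates 1 to 4. The groups did not overlap, but Meis1 deleted replicate 1 and Hoxa9 and Meis1 replicate 2 were within 0.10 of each other. The difference was -0.54 ± 0.10 (adjusted p = 0.00239, limma). The size of this dim gene's difference depended on the offset, and with 64 added to the linear signal it was -0.21 (adjusted p = 0.00415). It was -0.37 within array set 1 (adjusted p = 0.0837, limma) and -0.79 within array set 2, which held 1 deleted array. Its widely expressed counterpart Cox7a2 differed by -0.05 ± 0.04.

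Cox8b, the muscle form of Cox8, read 4.75, 4.90, 4.89 and 4.79 in Meis1 deleted replicates 1 to 4 and 4.93, 4.98, 5.03 and 5.00 in Hoxa9 and Meis1 replicates 1 to 4. The nearest arrays of the 2 groups were 0.02 apart. The difference was -0.15 ± 0.05 (adjusted p = 0.0473, limma), and it passed in 5 of 22 alternative fits. With 64 added to the linear signal it was -0.05 (adjusted p = 0.101). It missed the threshold with array set as a block (adjusted p = 0.0637), and when any 1 array other than Meis1 deleted replicate 2 was left out. The widely expressed Cox8a and the testis form Cox8c differed by -0.01 ± 0.06 and -0.02 ± 0.08.

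The other isoform pairs did not pass in either member. Cox4i1, the common form of subunit 4, differed by -0.0089 ± 0.04 and Cox4i2, known from lung and hypoxia, by -0.0020 ± 0.06. Cox6a1 differed by 0.07 ± 0.04 and its muscle counterpart Cox6a2 by -0.03 ± 0.07. Cox6b1 differed by 0.08 ± 0.05, and the means of the testis form Cox6b2 were 4.04 and 4.11, under the filter. Ndufa4, named for complex I but known as a subunit of complex IV, was higher by 0.06 ± 0.04 (adjusted p = 0.244, limma), while the hypoxia-induced Ndufa4l2 differed by -0.04 ± 0.07.

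**Figure D3:**
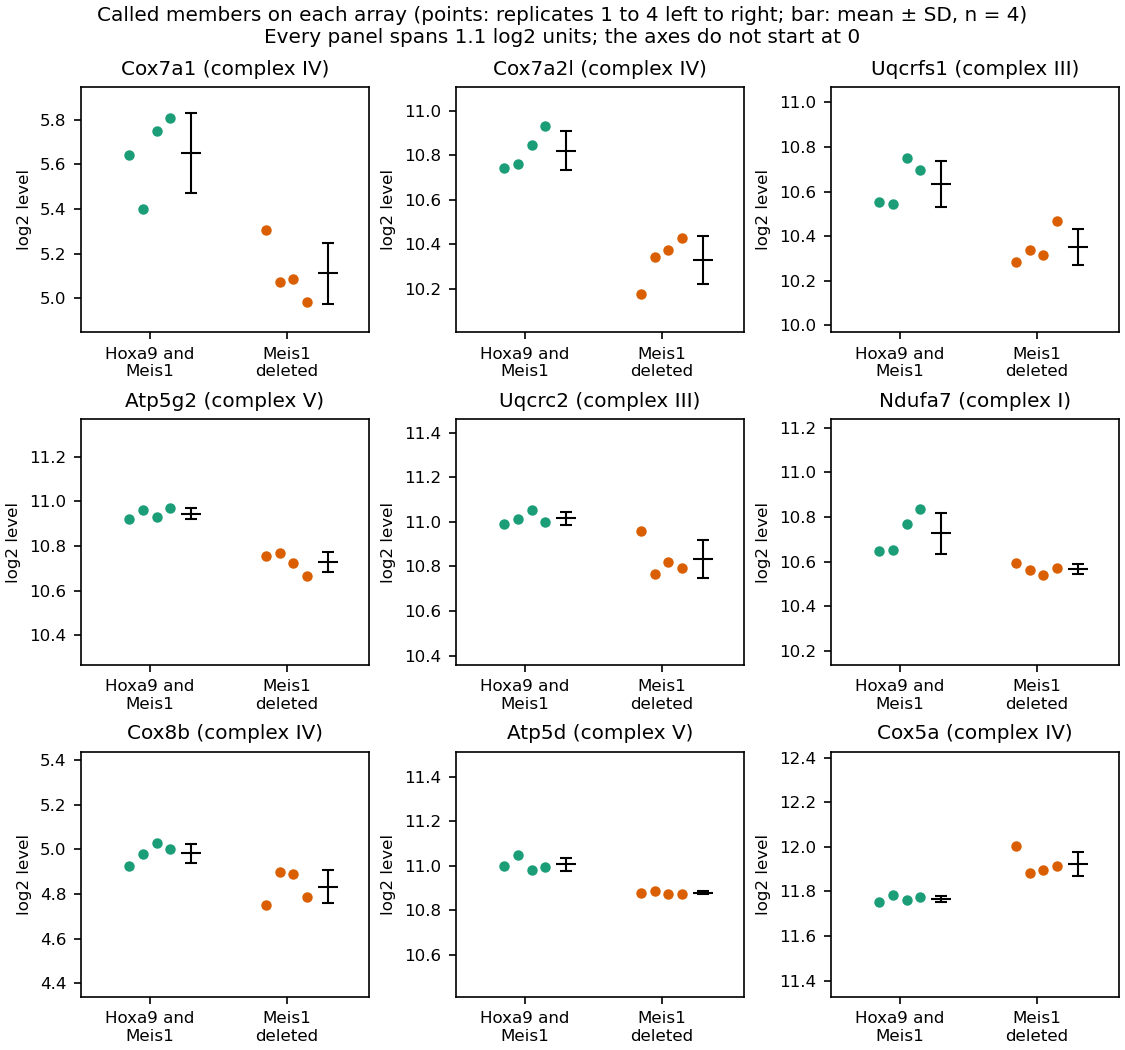
Log2 level on each array (y axis, every panel spanning 1.1 log2 units and not starting at 0) of the 9 genes that passed, as points for replicates 1 to 4 from left to right, with mean ± SD (n = 4) beside them. In each panel the 2 groups do not overlap, with a wide gap for Cox7a2l (mean 10.33 against 10.82) and a narrow one for Cox8b (4.83 against 4.98).

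Complex V, ATP synthase, held 17 genes, of which 0 rose and 2 fell (35.5% of all genes passed), with a median of 0.02. Atp5g2 is 1 of 3 genes that encode the same mature subunit c, the ring in the membrane that protons turn. It read 10.75, 10.77, 10.72 and 10.67 in Meis1 deleted replicates 1 to 4 and 10.92, 10.96, 10.93 and 10.97 in Hoxa9 and Meis1 replicates 1 to 4. Deleted and control arrays were separated by a gap of 0.15. The difference was -0.22 ± 0.04 (adjusted p = 0.00362, limma), so that the signal fell by 14.0%. It was -0.28 within array set 2, which held 1 deleted array. Within array set 1 it was -0.19 and did not pass (adjusted p = 0.0753, limma).

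The other subunit c genes did not pass. Atp5g1 differed by 0.02 ± 0.05, with an interval from -0.09 to 0.13, and Atp5g3 by 0.04 ± 0.04, with an interval from -0.06 to 0.13. The Atp5g2 interval, from -0.31 to -0.12, overlapped neither of these. The differences between the 3 genes were not tested.

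The Atp5g2 promoter window is shown because it was the only window of a changed gene with a match to the NRF1 motif. It lies at chr15:102671048-102671297 on the minus strand of GRCm38.p6, and the match is in capitals.
Atp5g2: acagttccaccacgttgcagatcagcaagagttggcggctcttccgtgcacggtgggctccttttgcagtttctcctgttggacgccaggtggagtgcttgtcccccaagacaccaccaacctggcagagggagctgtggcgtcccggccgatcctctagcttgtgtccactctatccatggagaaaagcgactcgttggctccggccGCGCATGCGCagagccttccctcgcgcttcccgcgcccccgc
The match ends 32 bases before the end of the window, within a window that is 62.8% G and C.

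Atp5d encodes the delta subunit of the central stalk, which turns with the ring. It read 10.88, 10.89, 10.88 and 10.87 in Meis1 deleted replicates 1 to 4 and 11.00, 11.05, 10.98 and 10.99 in Hoxa9 and Meis1 replicates 1 to 4. All deleted arrays were below the controls and differed among themselves by 0.01. The difference was -0.13 ± 0.04 (adjusted p = 0.0323, limma), while a second probe set was lower by -0.29 ± 0.06 (adjusted p = 0.00588). It was -0.11 within array set 2, which held 1 deleted array. Within array set 1 it was -0.14 and did not pass (adjusted p = 0.144, limma). With 1 array left out it passed only when that array was Meis1 deleted replicate 1.

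The catalytic core of ATP synthase did not pass. Atp5a1 and Atp5b, the alpha and beta subunits, differed by -0.05 ± 0.04 and -0.10 ± 0.06. Atp5l, subunit g of the membrane part, was at 11.53 ± 0.01 against 11.43 ± 0.02 (SD, n = 4 each) with no overlap, a difference of 0.09 ± 0.04 (adjusted p = 0.100, limma). Atp5c1, the gamma subunit of the stalk, differed by -0.03 ± 0.04 at its bright probe set, but a dim one, with means of 6.45 and 6.14, was higher by 0.31 ± 0.08 (adjusted p = 0.0227).

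Several genes were measured more than once. Of the 127 kept probe sets, 6 were higher and 14 lower, beside 31.3% that passed (14.2% higher and 17.1% lower) among all 27022 kept probe sets. Of the 37 genes with several kept probe sets, 27 had none that passed, and 4 had all of theirs pass in the same direction (Atp5d, Cox5a, Cox7a2l and Uqcrc2). In the other 6 genes the probe sets differed in their call, and in Sdha they passed in opposite directions. Uqcrfs1, Atp5g2, Cox7a1 and Cox8b had 1 kept probe set each, so no second measurement of them was available. Cox8b passed over the genes but not over all kept probe sets (adjusted p = 0.0523, limma), so it is not among the 14 lower ones. Probe sets whose names mark shared or cross-hybridizing sequence stood for 13 of the 77 genes, Cox7a2l and Atp5d among them.

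**Figure D4:**
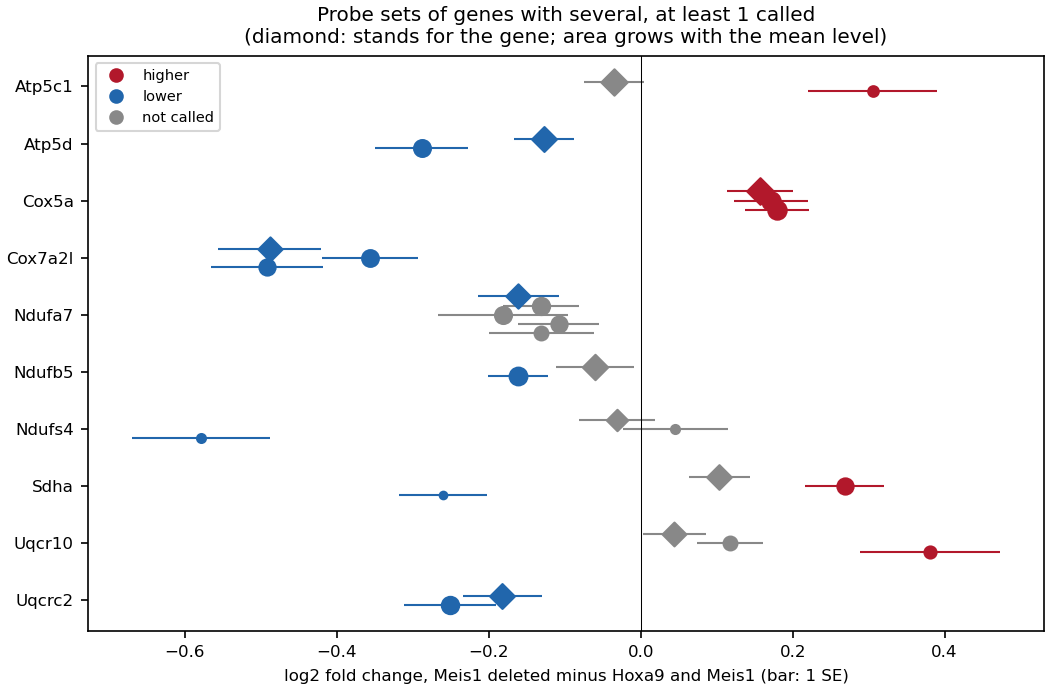
Log2 fold change (x axis, Meis1 deleted minus Hoxa9 and Meis1) with 1 SE for every kept probe set of the 10 genes with several kept probe sets of which at least 1 passed; diamonds mark the probe set that stood for the gene, area grows with the mean level, and colour gives the call over all probe sets. Atp5d, Cox5a, Cox7a2l and Uqcrc2 have all their points on one side and coloured, whereas those of Sdha lie on both sides.

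Promoter sequence was compared for the members found in the RefSeq table. Of the 79 genes, 63 matched, with 68 windows of 250 bases before the start. Both strands were searched for the NRF1 motif (GCGC, any 2 bases and GCGC again, the site of a regulator of respiratory genes), CCGGAAG (the site of ETS factors such as GABP) and ATGGCGG (the site of YY1), none of which contains another. The NRF1 letters were in 14 of the 68 windows (20.6%), beside 9.49% of the windows of all genes tested and 4.98% of all promoters in the table. The ETS letters were in 10 windows (14.7%, beside 12.7% and 6.91%), and the YY1 letters in 5 windows (7.35%, beside 3.52% and 2.21%). At least 1 of the 3 was in 35.3% of member windows, 23.2% of those of genes tested and 12.9% of all. Median GC content was 56.0% in member windows and 59.2% in those of genes tested.

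Among the genes that passed, 8 had 10 windows. The NRF1 letters were in 1 of the 10 (Atp5g2), the YY1 letters in the 2 overlapping windows of Ndufa7, and the ETS letters in 0. A match here describes the letters of the window and was not tested for binding.

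Genes that build, supply or regulate the respiratory chain were then read from the same fit. Of 214 such genes tested, 62 passed (29.0%, beside 35.5% of all genes), and the medians of the lists stayed between -0.09 and 0.06. The 4 genes tested that belong to the complexes or carry electrons between them but lie outside the symbol rule did not pass: cytochrome c (Cycs, -0.05 ± 0.05), cytochrome c1 (Cyc1, 0.04 ± 0.04), the acyl carrier subunit Ndufab1 (-0.02 ± 0.04) and the ATP synthase inhibitor Atpif1 (-0.0089 ± 0.06).

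Of 47 assembly factors, which help to build the complexes, 8 rose and 4 fell (25.5%), with a median of 0.03. Nubpl, which delivers iron-sulfur clusters to complex I, fell by 0.43 ± 0.05 (adjusted p = 0.000111, limma). Cox18 and Coa5, both complex IV assembly factors, rose by 0.35 ± 0.04 and 0.33 ± 0.04, and the complex I factor Dmac1 rose by 0.35 ± 0.05. Sdhaf2, which inserts the flavin into Sdha, had the largest rise of the list at 0.51 ± 0.08 (adjusted p = 0.000737), and it was named after its values were seen.

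Of 15 regulators of mitochondrial content tested, 2 rose and 4 fell (40%, near the 35.5% of all genes). The deacetylase Sirt1 fell by 0.76 ± 0.06 (adjusted p = 1.61e-05, limma), the coactivator Pprc1 by 0.59 ± 0.07, and Gabpa, the DNA-binding subunit of GABP, by 0.40 ± 0.05. The antioxidant regulator Nfe2l2 rose by 0.37 ± 0.04. Of 14 genes that copy, transcribe or process the mitochondrial genome, 2 rose and 4 fell (42.9%). Tfb2m, the transcription initiation factor, fell by 0.51 ± 0.08, the DNA polymerase Polg by 0.34 ± 0.08 and Tfb1m by 0.23 ± 0.05, while the elongation factor Tefm rose by 0.33 ± 0.06.

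Among 73 mitochondrial ribosomal protein genes, 6 rose and 10 fell (21.9%), with a median of -0.04. Mrpl41 and Mrpl44 rose by 0.43 ± 0.04 and 0.30 ± 0.04, and Mrpl23 and Mrps30 fell by 0.41 ± 0.06 and 0.30 ± 0.04. Among 21 genes of the tricarboxylic acid cycle and of pyruvate entry, 3 rose and 7 fell (47.6%). The dehydrogenase Idh2 fell by 0.38 ± 0.04, the succinyl-CoA ligase subunit Suclg2 by 0.54 ± 0.06 and the pyruvate dehydrogenase kinase Pdk1 by 0.58 ± 0.07, while Ogdh, of the 2-oxoglutarate dehydrogenase complex, rose by 0.36 ± 0.09 (adjusted p = 0.0102, limma).

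Of 15 genes of coenzyme Q synthesis and other quinone oxidoreductases, 4 rose and 5 fell (60%). Coq10b, a coenzyme Q binding protein, fell by 0.96 ± 0.05 (adjusted p = 9.37e-07, limma), the largest difference in the 9 lists. The synthesis gene Pdss2 rose by 0.29 ± 0.06, and Coq8b and the sulfide oxidoreductase Sqor fell by 0.31 ± 0.06 and 0.24 ± 0.05. Of 16 carrier and cristae genes 0 rose and 2 fell (12.5%), namely Tmem11 by 0.36 ± 0.06 and Micos13 by 0.18 ± 0.04. Of 9 antioxidant genes 1 rose (11.1%), the superoxide dismutase Sod2, by 0.29 ± 0.05 (adjusted p = 0.00123, limma).

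**Figure D5:**
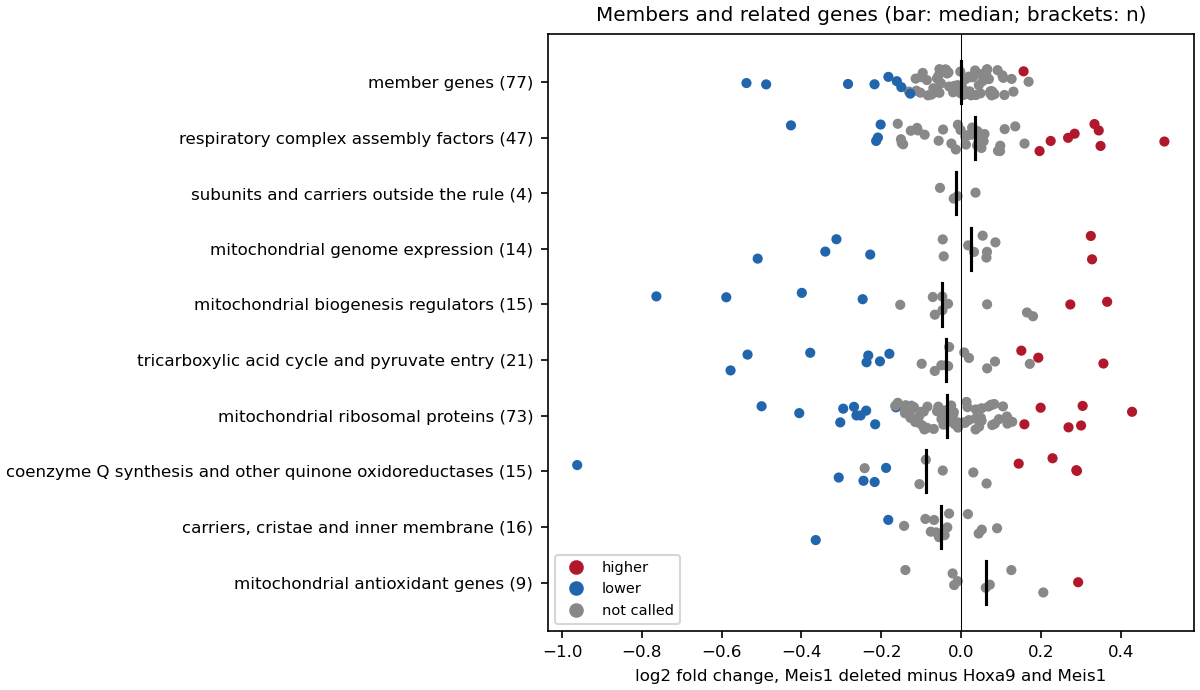
Log2 fold change (x axis, Meis1 deleted minus Hoxa9 and Meis1) of the 77 member genes and of the genes tested in 9 related lists, with the number of genes in brackets, the median as a bar and the call as colour. Member genes gather near 0 apart from Cox7a1 (-0.54), Cox7a2l (-0.49) and Uqcrfs1 (-0.28), and the other lists hold points on both sides, such as Coq10b at -0.96 and Sdhaf2 at 0.51.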

How the data were processed

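Per the labels' protocols, biotin-labelled cRNA was hybridized to 1-colour Affymetrix arrays. The authors deposited 1 value per probe set and array, taken as log2 signal from its range (2.65 to 13.2); array medians of 4.69 to 4.74 show that the values were already scaled between arrays. The tool MAS5 appears, without a role, per the submitters' processing notes. The summarisation method was not given in the sources used here.

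Of 45141 probe sets, 104 controls were left out, then the lowest 40% by mean, which left 27022. Platform annotation gave 1 symbol to 28898, several to 551 and none to 15588. Differences were fitted with limma 3.58.1 in R 4.3.3 (lmFit, eBayes on all kept probe sets, no covariate, all 8 arrays). Each gene was represented by its brightest kept probe set, and p-values were adjusted by Benjamini-Hochberg over 11836 genes, or over 27022 probe sets where probe sets are compared. The procedure was tested on simulated arrays with independent errors, which held no array sets, so that test does not cover differences between array sets. The number of arrays limits the precision.

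Members and lists were chosen with earlier results of these data known. Named genes are those that passed, the 3 smallest p values in each complex, isoform pairs, genes whose probe sets disagree, up to 4 passing genes per related list, and Meis1 and Hoxa9; others are said to be named later. Alternatives changed the offset, scaling, filter, probe set rule, variance model, array weights, blocks and arrays used; within array sets only those arrays entered the comparison. Same-numbered samples did not pair (correlations of 0.03, 0.22, -0.13 and 0.29). No 2 arrays were identical. Promoters came from the RefSeq table for GRCm38.p6.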

Additional observations from a re-analysis of the deposited data

Results flagged for a closer look

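Single arrays were checked in each group for the 30 named subunit genes and for the mean over all members, and 2 of 62 groups of 4 had an array far from the other 3, where chance gives about 1 in 20. Ndufa4l2, the hypoxia-induced isoform, was at 4.637 in Meis1 deleted replicate 3 and at 4.432 to 4.457 on the other deleted arrays. Sdha was at 10.73 in Hoxa9 and Meis1 replicate 2 and at 10.79 to 10.80 on the other control arrays. Neither gene passed the test.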

How the results depend on the processing

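The median difference over the subunits, -0.00125, was 0.0346 within array set 1 and -0.0354 within array set 2, and it ran from -0.0143 to 0.0207 with 1 array left out. Array set 2 held 1 deleted array, so no counts are given within it. The count of subunit genes that rose, 1, was 4 with an offset of 64 and 2 after quantile normalization. It was 2 with a filter that removed 60% of probe sets and 2 with the mean of probe sets. It was 3 with trend and robust variances and 4 with array weights. With array set as a block it was 2, and 5 with Meis1 deleted replicate 1 also left out. It was 4 when each probe set counted alone, 0 within array set 1, and 0 to 2 with 1 array left out. The count that fell, 8, was 2 within array set 1 and 4 to 9 with 1 array left out. With the replicate block, in a design whose numbers did not pair the samples, 0 rose and 4 fell (Atp5g2, Cox7a1, Cox7a2l and Uqcrfs1), and not every sample correlated best with its own number. The count of related genes that passed, 62, was 31 within array set 1, 21 within array set 2, and 51 to 66 with 1 array left out. The cause of these shifts was not tested, and fewer arrays entered the fits within a set. Under every setting with 1 probe set or mean a gene, 2 to 16 subunit genes passed (2.60% to 20.8%), against 17.9% to 45.9% of all genes. No named gene that passed changed direction under its alternatives. An eBayes fit on the genes alone, chosen after seeing the data, called the same 9. Dim signals limit Cox7a1, Cox8b and the other restricted isoforms, for which no detection calls were used.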
